A study of Homo sapiens with 2 samples.

Results

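AFF2, a scaffold gene of the AFF family, was the 1 gene among 10 AFF, ELL, EAF and MLLT genes whose RNA stood far apart between HEK293 cells with and without LARP7. The 10 genes were AFF1, AFF2, AFF3, AFF4, ELL, ELL2, ELL3, EAF1, MLLT1 and MLLT3, of 57894 genes with a transcript in the tables. They have 78 annotated transcripts of 197318, of which 59 had reads in at least 1 library and 19 had none. The set was chosen by family and complex, with the high AFF2 level in the knockout already known from the same libraries. The AFF2 difference is therefore given as a description, with no test. HEK293 is a line from human embryonic kidney, and total RNA was sequenced from parental cells and from LARP7 knockout clone 1-11, with 2 libraries each. All knockout libraries come from 1 clone, so the effect of the deletion and other differences of that clone cannot be told apart. The labels name no treatment for either group and do not say that the libraries were separate cultures. In bulk RNA, fewer cells that express a gene and less RNA per cell cannot be told apart.

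AFF proteins are long, largely unstructured scaffolds. AFF1 and AFF4 hold together the super elongation complex, which joins the kinase P-TEFb to an ELL elongation factor with its EAF partner and to a YEATS-domain reader, MLLT1 (ENL) or MLLT3 (AF9). The complex releases paused RNA polymerase II into elongation. LARP7 stabilises 7SK RNA, which keeps P-TEFb in an inactive store, so both systems draw on the same kinase. Several of these genes are fusion partners of KMT2A in leukaemia, and AFF2, also called FMR2, is silenced in the fragile X syndrome FRAXE.

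The libraries held 12851942 to 18483220 estimated reads, the fewest in parental replicate 2. The median gap between annotated and effective transcript length, a measure of fragment length, was 217.0 and 206.7 bases in parental cells, against 232.9 and 225.8 in the knockout. 7SK RNA, counted on the annotated entry of that locus that held reads, was at 5570 and 5480 CPM (read counts scaled to library size, with TMM factors) in parental replicates 1 and 2 and at 169 and 205 in the knockout. LARP7 itself was at 59.8 and 46.5 against 36.1 and 31.9, which did not pass over all genes (edgeR adjusted p = 0.135). Of 8 HEK293 markers, VIM, NEFL and CDH2 had group means of 75.2 to 514 CPM and KRT18 of 13.1 and 18.8. PAX2 (4.38 and 5.0) and KRT8 (1.53 and 1.97) were low, PAX8 was near 0 in both groups and NEFM fell from a mean of 61.5 to 8.17 CPM (edgeR adjusted p = 0.00164). The endothelial markers PECAM1 and CDH5 and the heart marker MYH6 had no reads in any library. One label of the knockout sample calls it wildtype, and its title and genotype field were followed instead.

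AFF2 lies on chromosome X from 148500619 to 149000663 (GRCh38, plus strand) and spans 500045 bases. GENCODE v29 lists 5 transcripts. AFF2-202, AFF2-203 and AFF2-205 have 20, 20 and 21 exons and start at the distal first exon. AFF2-201 has 18 exons and its own first exon at 148719091, inside the gene. AFF2-204 starts at the distal exon but ends after 8 exons, with 1281 coding bases against 3933 in AFF2-205. Its last exon has 157 bases, against 38 for the exon at the same start in the other transcripts.

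Of the coding segments that differ among these transcripts, 4 are shown because the reads of AFF2 were divided among them. Each is printed 5′ to 3′ on the plus strand, read from the GENCODE v29 transcripts, and the capitals mark the bases that only the named transcripts have.
Exon 5 of AFF2-205, chrX:148837647-148837733, in no other transcript: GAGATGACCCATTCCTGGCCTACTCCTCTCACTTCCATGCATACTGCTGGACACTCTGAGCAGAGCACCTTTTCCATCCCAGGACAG
Coding part of exon 1 of AFF2-201, chrX:148719181-148719231, in no other transcript: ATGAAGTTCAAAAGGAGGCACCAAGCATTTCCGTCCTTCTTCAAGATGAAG
Exon 2, chrX:148651999-148652131, with 12 more bases in AFF2-203 and AFF2-205: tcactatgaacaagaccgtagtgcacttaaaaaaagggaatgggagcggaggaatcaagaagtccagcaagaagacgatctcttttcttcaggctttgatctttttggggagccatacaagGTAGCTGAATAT
Exon 4 of AFF2-201, chrX:148843382-148843433, with 18 more bases in AFF2-201, AFF2-202 and AFF2-205: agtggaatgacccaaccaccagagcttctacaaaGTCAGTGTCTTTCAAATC
AFF2-204 has none of these capitals, so what sets it apart is its early end. A further exon, chrX:148962715-148962937, has 6 more bases in AFF2-201, AFF2-203 and AFF2-205 than in AFF2-202 and is not printed. Reads from the exons it shares with the longer transcripts could only be divided by estimate, and the error of that division was not measured.

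**Figure D1:**
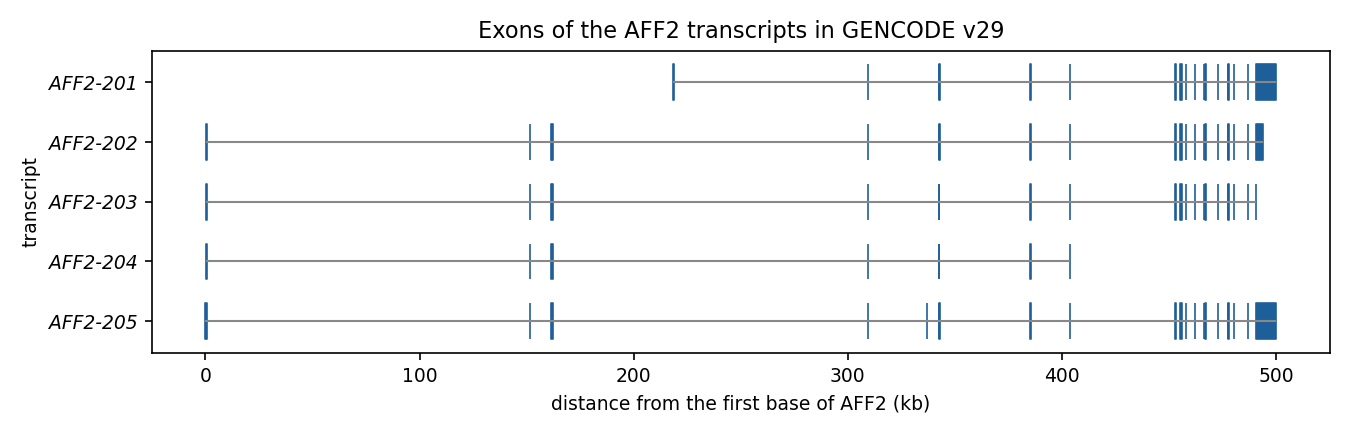
Exons (blue) and introns (grey lines) of the 5 AFF2 transcripts, drawn to scale by distance in kb from the first base of the gene. AFF2-201 starts inside the gene and AFF2-204 ends after 8 exons, while the other 3 transcripts run from the distal exon into the last exon, which only AFF2-201 and AFF2-205 hold to the end of the gene.

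The upstream windows of AFF2 and of AFF4 are printed because reads were assigned to AFF2-201, which begins 250 bases into the AFF2 window. RefSeq holds such windows, with 250 bases before and 50 after a start, for 9 of the 10 genes (11 windows, GRCh38.p14). ELL2 has none in the table, nor has the distal start of AFF2, where AFF2-202 to AFF2-205 and most of the reads begin. CG dinucleotides are in capitals.
AFF2 internal start, chrX:148718841-148719140, plus strand: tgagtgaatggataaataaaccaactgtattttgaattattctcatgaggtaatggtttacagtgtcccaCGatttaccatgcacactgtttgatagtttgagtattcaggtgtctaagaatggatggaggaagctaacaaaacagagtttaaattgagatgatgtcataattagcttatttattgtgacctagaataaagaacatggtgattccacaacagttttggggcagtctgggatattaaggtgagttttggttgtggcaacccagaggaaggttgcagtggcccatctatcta
AFF4, chr5:132963585-132963884, minus strand: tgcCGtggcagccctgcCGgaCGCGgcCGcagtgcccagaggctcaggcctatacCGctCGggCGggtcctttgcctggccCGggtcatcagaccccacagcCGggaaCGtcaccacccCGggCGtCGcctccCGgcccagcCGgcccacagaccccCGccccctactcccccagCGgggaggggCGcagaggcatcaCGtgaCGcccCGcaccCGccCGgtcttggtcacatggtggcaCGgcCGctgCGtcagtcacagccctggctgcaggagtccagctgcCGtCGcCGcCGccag
The AFF2 window had 38.0% G and C and 1 CG dinucleotide, and 11.0% of all 35116 windows held as few or fewer. The AFF4 window, which lies at that gene's main start, had 74.7% and 31, and the median over all windows was 58.7% and 14. The GC box CCGCCC, searched on both strands, occurred in 9 of the members' 11 windows and in 45.0% of all windows. It was not in the AFF2 window or in the AFF3 window that ends at 100142840 on chromosome 2. TATAAA, on both strands, was in none of the 11 and in 11.5% of all. The E-box CACGTG was in the MLLT1 and AFF4 windows and in 7.26% of all.

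The other genes lie, in GRCh38, as follows. The AFF genes are AFF1 on chromosome 4 from 86935002 to 87141054 (plus strand), AFF3 on chromosome 2 from 99545419 to 100142739 (minus strand) and AFF4 on chromosome 5 from 132875379 to 132963634 (minus strand). The ELL genes are ELL on chromosome 19 from 18442663 to 18522127 (minus strand), ELL2 on chromosome 5 from 95885098 to 95962071 (minus strand) and ELL3 on chromosome 15 from 43772600 to 43777543 (minus strand). EAF1 is on chromosome 3 from 15427355 to 15450635 (plus strand). The readers are MLLT1 on chromosome 19 from 6210379 to 6279948 (minus strand) and MLLT3 on chromosome 9 from 20341665 to 20622543 (minus strand).

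In the fit over all 18484 tested genes (edgeR quasi-likelihood test), 1 of the 10 members was called higher and 0 were called lower. Over all genes, 0.33% were called higher and 0.503% lower, 0.833% in all. The called member was AFF2, which the choice of the set had fixed, so nothing is read from that count. The 9 members other than AFF2 are therefore counted on their own. None of the 9 was called by edgeR, DESeq2 or limma voom, where DESeq2 called 2.24% and limma voom 0.812% of all genes. An unadjusted p under 0.05 was found in 2 of the 9 (AFF3 and MLLT3) and in 2634 of the 18484 genes. Log2 changes were above 0 in 7 of the 9 and below 0 in ELL3 and EAF1, with a median of 0.14, against 0.00 over all genes. In 5 of the 9 both knockout libraries lay above both parental ones in CPM, as they did for 23.5% of all genes (4349). In 0 of the 9 did both lie below, which was so for 4199 of the 18484 genes.

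**Figure D2:**
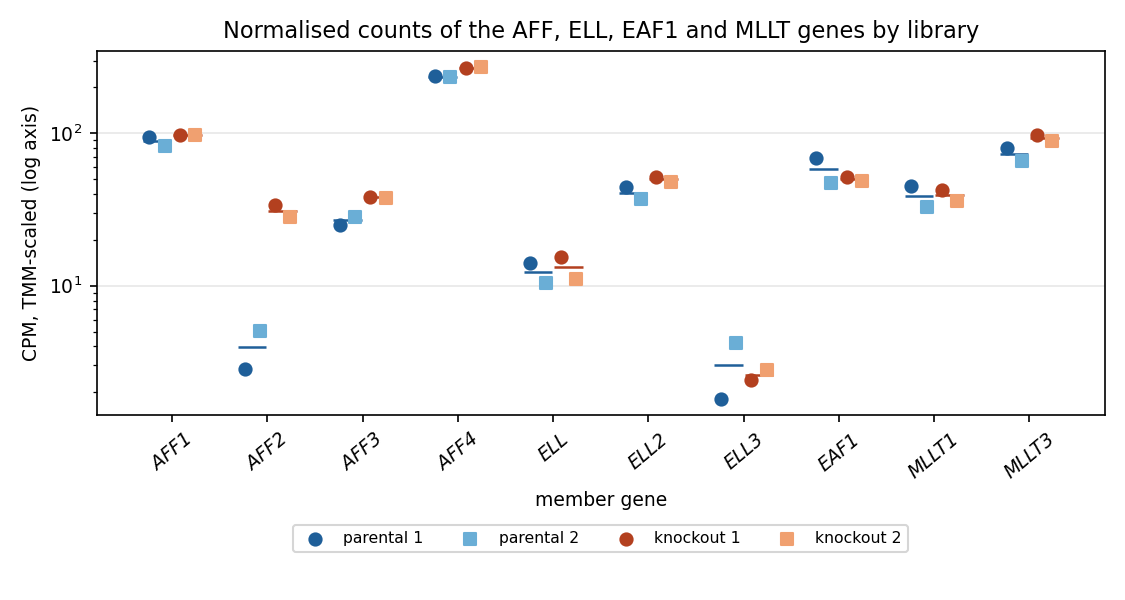
CPM after TMM scaling (log axis) of the 10 genes in each of the 4 libraries, with the group mean as a short line (n = 2 libraries per group). AFF2 moved from 2.84 and 5.08 to 33.7 and 28.4, while the largest fold among the other genes was 1.42, for AFF3.

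AFF2 was at 2.84 and 5.08 CPM in parental replicates 1 and 2 and at 33.7 and 28.4 in the knockout. These values rest on 50 and 64 reads in parental cells, against 577 and 480 in the knockout. The means were 3.96 ± 1.58 and 31 ± 3.73 CPM (SD, n = 2), a fold of 7.98 and a log2 difference of 3.0 (SE 0.28). The groups did not overlap, and the lower knockout library was still far above the higher parental one. The fold was 6.08 without parental replicate 1 and 10.9 without parental replicate 2. It was 12.7 with an offset for effective transcript length, and lay between 7.27 and 8.64 in the remaining 9 alternatives.

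AFF2 did not share exact sequence with its relatives. Of its 14077 distinct stretches of 31 bases, 20 occurred in transcripts of other genes (0.142%) and 0 in those of another member. The sense intronic RNA AFF2-IT1 had 0 CPM in 3 libraries and 0.118 in knockout replicate 2. Of the nearest protein-coding genes, FMR1NB had no reads in any library. IDS, a lysosomal sulfatase gene on the other side, was at 74.5 and 94.8 CPM in parental cells, against 85.3 and 88.6 in the knockout. Its log2 difference was 0.04 (SE 0.15, edgeR adjusted p = 0.937).

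All 5 AFF2 transcripts received more reads in each knockout library than in either parental one. AFF2-204, the early-ending form, went from 1.38 and 1.14 reads in parental cells to 116 and 114 in the knockout. AFF2-202 went from 34.9 and 20.6 to 157 and 131, and AFF2-203 from 8.46 and 18.9 to 91.8 and 43.6. AFF2-201, from the internal start, had 0 and 23.4 reads in parental cells, against 174 and 91.8 in the knockout. AFF2-205, with the cassette exon, had 5.28 and 0 reads in parental cells, against 38.6 and 99.5 in the knockout. The knockout libraries lay close together for AFF2-204 and farther apart for AFF2-201, AFF2-203 and AFF2-205.

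The share of AFF2-204 lay apart between the groups, but its parental values rest on 1.38 and 1.14 reads and the fit of transcript usage did not call AFF2. AFF2-204 held 2.75 and 1.78% of the gene's reads in parental cells, against 20.1 and 23.7% in the knockout. AFF2-202 held 69.8 and 32.1% in parental cells, against 27.2 and 27.3% in the knockout, so the parental libraries lay far apart. Per kb of effective length, AFF2-204 had 92.2 and 90.3 reads in the knockout, and the next highest, AFF2-203, had 24.7 and AFF2-202 18.5. In parental cells AFF2-204 had 1.08 and 0.889 reads per kb, below AFF2-202 (4.92 and 2.89) and AFF2-203 (2.27 and 5.04). The internal start held 0 and 36.6% of the reads in parental cells, against 30.1 and 19.1% in the knockout, so the groups overlapped.

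**Figure D3:**
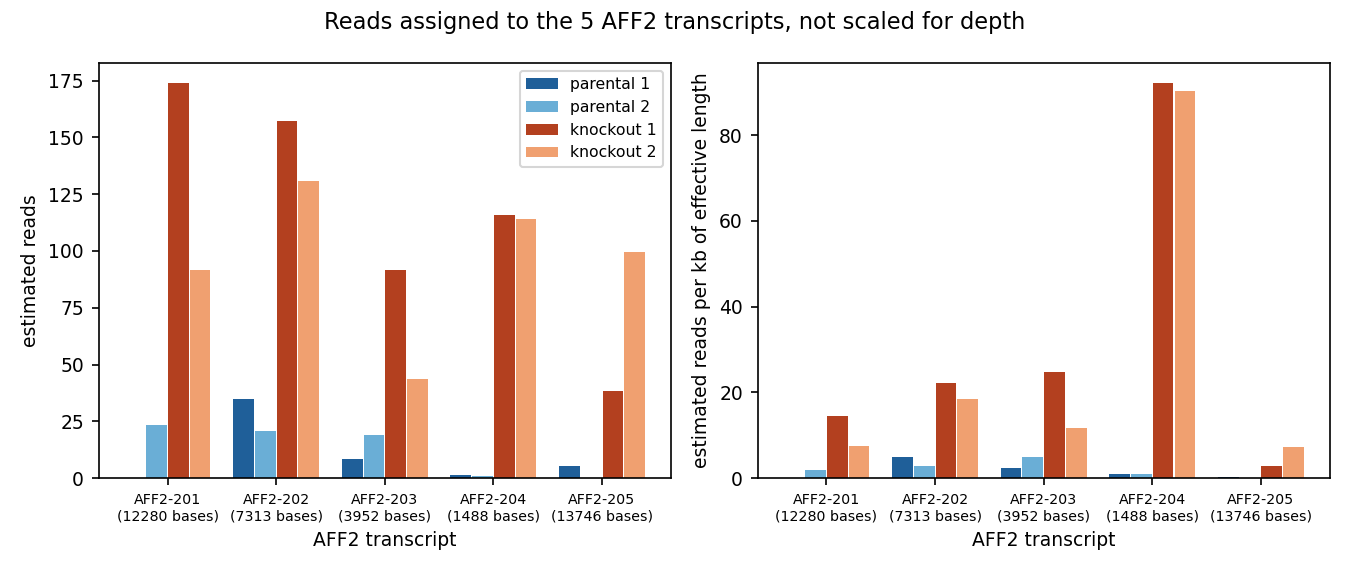
Estimated reads (left) and estimated reads per kb of effective length (right) of the 5 AFF2 transcripts in the 4 libraries. AFF2-204 has 116 and 114 reads in the knockout libraries, fewer than AFF2-202, but the most reads per kb, 92.2 and 90.3.

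AFF3, the family member expressed in lymphoid and neural tissue, was at 25.2 and 28.4 CPM in parental cells, against 38.1 and 37.9 in the knockout. The groups did not overlap, and the log2 difference was 0.50 (SE 0.15), a fold of 1.42, which did not pass over all genes (edgeR adjusted p = 0.18). It passed without parental replicate 2 (0.59, edgeR adjusted p = 0.0101), where 9.27% of all genes passed. It also passed with the replicate number as a block (0.51, edgeR adjusted p = 0.0225), where 8.96% did. Over all 12 alternatives it ranged from 0.20 to 0.60. Its most read transcript AFF3-201 had 303 and 267 reads in parental cells, against 393 and 426 in the knockout. The longer coding transcript AFF3-202, of 9849 bases, had 73.1 and 50.6 against 185 and 124. The short form AFF3-210 had 49.7 and 23.5 against 31.7 and 35.8, so its libraries overlapped. The antisense gene AC092667.1 shares 770 exon bases with AFF3 and had at most 0.739 CPM.

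AFF4, the main scaffold of the complex, was the most abundant member by TPM over all transcripts. It was at 236 and 234 CPM in parental cells, against 270 and 271 in the knockout, with an SD of at most 1.21 CPM in each group. Although the groups did not overlap, the log2 difference of 0.20 (SE 0.11) did not pass over all genes (edgeR adjusted p = 0.455). The transcript AFF4-201 took most reads, 3742 and 2588 in parental cells, against 4157 and 4194 in the knockout. The retained-intron form AFF4-206 had 201 and 220 reads in parental cells, against 215 and 196 in the knockout.

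AFF1, the other scaffold of the complex and the first known KMT2A fusion partner of the family, was at 94.2 and 83.1 CPM in parental cells, against 97.8 and 97.3 in the knockout. The log2 difference was 0.14 (SE 0.13, edgeR adjusted p = 0.673), and it turned to -0.33 with the offset for transcript length. Its main transcript AFF1-202 had 1213 and 704 reads in parental cells, against 1176 and 1132 in the knockout. The short form AFF1-210, of 582 bases, had 45.4 and 27.9 reads in parental cells, against 11.1 and 8.75 in the knockout. Its share of AFF1 TPM was 29 ± 4.45% in parental cells, against 9.23 ± 1.89% in the knockout (SD, n = 2). Shares of other forms were higher in the knockout, 6.85 ± 1.85% against 11.3 ± 1.65% for AFF1-201. For AFF1-206 they were 6.72 ± 9.5% against 20.2 ± 0.546%, with nearly no reads in parental replicate 2. AFF1-210 and AFF1-206 held under 5% of the gene's reads in each library and did not enter the fit of transcript usage.

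Within the AFF family, AFF2 took a larger part of the RNA in the knockout. TPM, the deposited abundance per length, allows levels to be compared between genes. Transcripts under 300 bases took 404358 and 557159 of the TPM in parental cells, against 350621 and 394281 in the knockout, which moves every other TPM between libraries. AFF2 held 0.577 and 1.02% of the summed AFF TPM in parental cells, against 9.83 and 8.31% in the knockout. With transcripts of at least 2000 bases alone, which leaves out AFF2-204 and was chosen after the values were seen, the shares were 1.14 and 2.24% against 7.96 and 5.84%. Over all transcripts, AFF4 held 58.3 and 60.5% against 58.0 and 58.2%, and AFF1 25.6 and 27.3% against 18.9 and 19%. With the long transcripts alone, AFF4 held 64.1 and 66.0% against 61.3% in both knockout libraries. AFF1 then held 27.9 and 22.9% against 22.1 and 23.8%, so its groups overlapped. On the summed TPM scale AFF2 was 17.3-fold higher in the knockout, and 7.20-fold with the long transcripts alone.

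**Figure D4:**
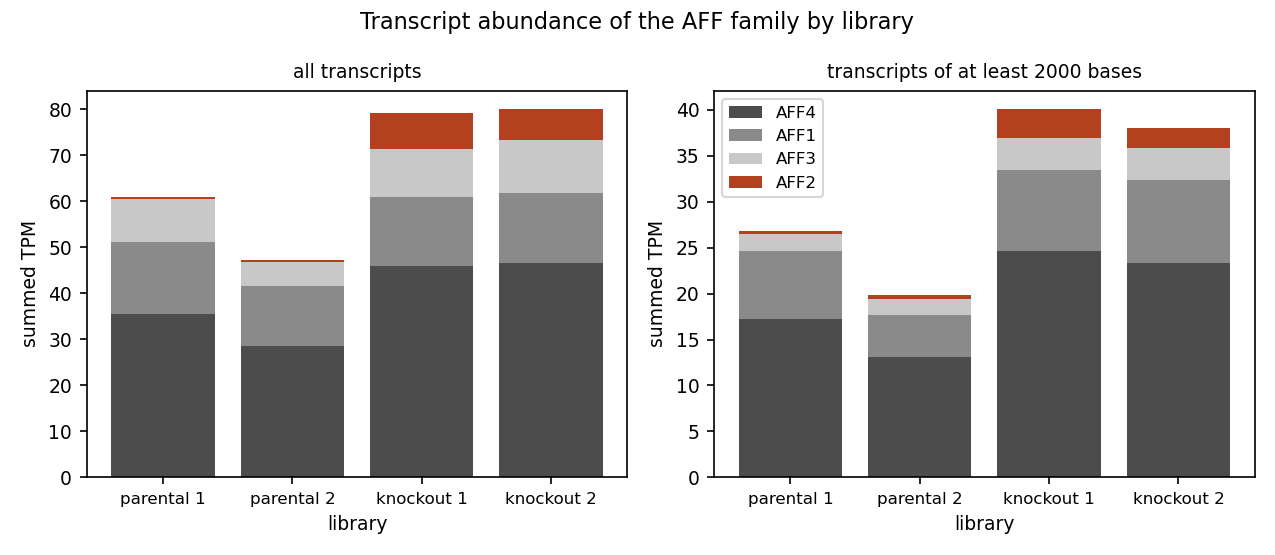
Summed TPM of AFF4, AFF1, AFF3 and AFF2 (stacked) in each library, over all transcripts (left) and over transcripts of at least 2000 bases (right), on different axes. AFF2 holds 9.83 and 8.31% of the left-hand bars in the knockout libraries, against 0.577 and 1.02% in the parental ones.

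ELL2, an elongation factor of the complex, was at 44.7 and 37.0 CPM in parental cells, against 51.7 and 48.2 in the knockout. The groups did not overlap, and the log2 difference was 0.29 (SE 0.15, edgeR adjusted p = 0.423). It passed without parental replicate 1 (0.43, edgeR adjusted p = 0.0448), where 11.4% of all genes passed. ELL2-201 carried 748 and 450 reads in parental cells, against 857 and 763 in the knockout. The retained-intron form ELL2-204 had 7.24 and 6.51 reads against 16.7 and 23.0. Of the stretches of 31 bases in ELL2, 9.65% occurred in other genes, nearly all in the processed pseudogene ELL2P1, which was at 0.284 to 0.70 CPM.

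ELL and ELL3 are the other members of that family. ELL was at 14.1 and 10.5 CPM in parental cells, against 15.5 and 11.1 in the knockout, so the groups overlapped and replicate 2 was the lower one in each. Its log2 difference was 0.10 (SE 0.25, edgeR adjusted p = 0.897). ELL3 had 32 and 53 reads in parental cells, against 41 and 47 in the knockout, or 1.82, 4.21, 2.39 and 2.78 CPM. Between 90.3 and 100.0% of its reads lay on transcripts without a coding sequence, and 64.8% of its stretches of 31 bases occur in other genes. Of these 1909 stretches, 1503 occur in AC018512.1, a gene on the same strand at 0 to 0.17 CPM. On the opposite strand, 599 occur in PDIA3 (211 to 253 CPM) and 386 in SERF2 (53.4 to 66.3 CPM). The strand setting of the counting is not given in the sources used here. Reads that ELL3 shares with PDIA3 and SERF2 therefore cannot be told apart. Reads shared with AC018512.1 could only be divided by estimate, whatever the strand setting.

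EAF1, the ELL-associated partner, was at 68.4 and 47.5 CPM in parental cells, against 51.9 and 48.5 in the knockout. The groups overlapped, parental replicate 1 alone was high, and the log2 difference was -0.21 (SE 0.18, edgeR adjusted p = 0.647). Without parental replicate 1 it was 0.08, and without parental replicate 2 it was -0.45 and passed (edgeR adjusted p = 0.00843). Nearly all reads were on EAF1-201, and 37.8% of the gene's stretches of 31 bases occur in other genes. EAF1-AS1, COLQ and METTL6 overlap it on the opposite strand, at 1.23 to 3.31, 0.887 to 1.82 and 16.7 to 21.2 CPM.

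MLLT3 and MLLT1, the readers of acetylated and crotonylated histones, differed in their values. MLLT3 was at 80.4 and 66.1 CPM in parental cells, against 97.3 and 89.3 in the knockout, without overlap. Its log2 difference was 0.35 (SE 0.14, edgeR adjusted p = 0.311), and it passed without parental replicate 1 (0.49, edgeR adjusted p = 0.0124). MLLT1 was at 44.8 and 32.7 against 42.7 and 35.9 CPM, with overlap, and its log2 difference was 0.02 (SE 0.18, edgeR adjusted p = 0.982). The difference between these genes was not tested. Of the MLLT3 transcripts, MLLT3-203 had 508 and 359 reads in parental cells, against 639 and 667 in the knockout, and MLLT3-210 had 375 and 208 against 437 and 406.

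By TPM over all transcripts, AFF4 led in parental cells with 35.5 and 28.6, above MLLT3 with 26.0 and 14.9. AFF1, with 15.6 and 12.9, overlapped MLLT3 and lay above the rest. EAF1, ELL2, AFF3, MLLT1 and ELL followed at means of 8.62 to 4.10 TPM, each overlapping the next in order, then ELL3 at 2.02. AFF2 was last with 0.351 and 0.484 TPM, below ELL3 without overlap. In the knockout AFF4, MLLT3 and AFF1 kept the first 3 places, while AFF2 stood eighth with 7.78 and 6.65 TPM. There it overlapped MLLT1 (11.5 and 7.44) and ELL (6.88 and 3.56). With transcripts of at least 2000 bases alone, AFF2 was ninth in both groups, at 0.375 ± 0.0971 and 2.70 ± 0.689 TPM (SD, n = 2). On that measure AFF4 (17.2 and 13.1) overlapped MLLT3 (18.0 and 11.3) in parental cells. They also overlapped in the knockout, at 24.6 and 23.3 for AFF4 against 26.0 and 21.8 for MLLT3. EAF1 then lay above AFF1 by mean, with overlap in both groups.

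Transcript usage, the division of a gene's reads among its transcripts, was fitted over 9475 genes with diffSpliceDGE. Of the members, 6 genes with 20 transcripts had enough reads to enter, and 0 were called, against 0.686% of all genes. None of the 20 transcripts had an unadjusted p under 0.05, and a gene-level F test in place of the Simes p called 0 of the 6. AFF4, ELL2, EAF1 and MLLT1 had fewer than 2 transcripts above the limits of 10 reads and 5% of the gene in 2 libraries, and were not tested.

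Partners of the complex did not pass the same fit. Of 16 genes, 0 were called by edgeR or limma voom, which called 0.833 and 0.812% of all genes. DESeq2 called 1 of the 16, and 2.24% of all genes. An unadjusted p under 0.05 was found in 4 of the 16 and in 2634 of the 18484 genes. Log2 differences were above 0 in 6 and below 0 in 10, with a median of -0.03. The P-TEFb kinase gene CDK9 was at 26.6 and 22.5 CPM in parental cells, against 18.4 in both knockout libraries (log2 difference -0.42, SE 0.17, edgeR adjusted p = 0.324). Its cyclins CCNT1 and CCNT2 lay at -0.02 and -0.03. HEXIM1, the inhibitor of P-TEFb in the 7SK particle, was at 34.8 and 22.9 against 54.9 and 42.9 CPM (0.75, SE 0.22, edgeR adjusted p = 0.173). ZC3H8, a subunit of the little elongation complex that also uses ELL, was at 37.3 and 36.8 against 27.1 and 23.7 CPM (-0.54, SE 0.15, edgeR adjusted p = 0.169). HEXIM1 and ZC3H8 passed with the replicate number as a block, where 8.96% of all genes passed. CDK9, HEXIM1 and ZC3H8 did not stay on the same side of the threshold without parental replicate 2, a fit with 1 parental library. HEXIM1 also passed with no filter on low counts, where 831 genes were called.

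The other partners were near 0 or scattered. EAF2, the second EAF gene, was at 4.38 and 2.94 against 4.79 and 2.31 CPM. KMT2A, the histone methyltransferase whose fusions recruit the complex, was at 462 and 514 against 478 and 478. Its cofactors MEN1 and PSIP1 lay at -0.10 and -0.15 on the log2 scale. DOT1L, the methyltransferase that also binds MLLT3, lay at -0.26, and MLLT10 and MLLT6 of its complex at 0.12 and 0.17. ICE1 and ICE2 of the little elongation complex lay at 0.13 and 0.09, and SIAH1, a ubiquitin ligase that acts on ELL2, at 0.14.

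**Figure D5:**
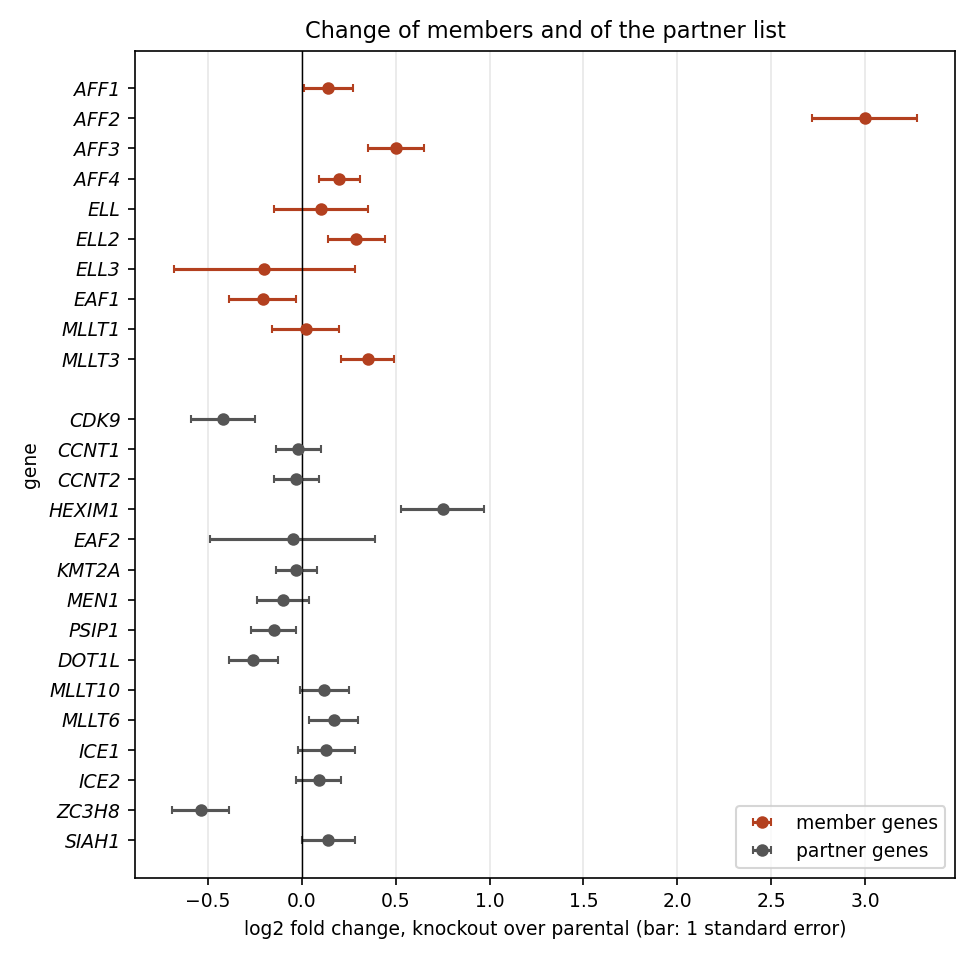
Log2 fold change of knockout over parental for the 10 members (red) and 15 of the 16 partner genes (grey), with 1 standard error as the bar, from the edgeR fit over all genes (n = 2 libraries per group). AFF2 stands at 3.0, and all other genes shown lie between -0.54 (ZC3H8) and 0.75 (HEXIM1).

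Of 24 genes described as served by the complex, among them immediate early, heat shock and HOXA genes, 22 were tested and 0 were called by edgeR, DESeq2 or limma voom. Over all genes the same fits, in that order, called 0.833, 2.24 and 0.812%. An unadjusted p under 0.05 was found in 4 of the 22, and in 2634 of the 18484 genes. The median log2 difference of the 22 was 0.01. FOS and EGR2 had too few reads to enter. The smallest p belonged to MEIS1 and PBX3, homeobox partners of HOX proteins, and to HOXA5. MEIS1 was at 26.9 and 26.3 CPM in parental cells, against 41.6 and 33.7 in the knockout (edgeR adjusted p = 0.223). PBX3 was at 38.9 and 39.1 against 52.2 and 48.2, and HOXA5 at 49.6 and 35.6 against 68.2 and 53.8. With the replicate number as a block, 4 of the 22 passed (MEIS1, HOXA5, HOXA10 and ATF3), 3 higher and 1 lower, where 8.96% of all genes passed. Without parental replicate 1 the fit called 7 of the 23 tested, 5 higher and 2 lower, where 11.4% of all genes passed. Without parental replicate 2 it called 3 of 23, 1 higher and 2 lower, where 9.27% passed.

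The nearest protein-coding genes on both sides of the 10 members held 15 tested genes, of which 0 were called by edgeR. Over all genes, 0.833% were called. An unadjusted p under 0.05 was found in 1 of the 15, GLRX beside ELL2, and in 2634 of the 18484 genes. GLRX was at 8.18 and 8.34 CPM in parental cells, against 11.9 and 13.0 in the knockout (edgeR adjusted p = 0.275).

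The 5 genes whose pattern over the 4 libraries lay nearest to that of AFF2 were B3GALT1, SLC16A7, HAS2, SELENBP1 and RNU1-27P. RNU1-27P is a pseudogene of U1 RNA, so its reads may be shared with other U1 copies. Likeness was the Euclidean distance between centred log2(CPM + 0.5) values, 0.24 for B3GALT1 and 0.56 to 0.79 for the others, and 4 libraries give few points to judge it by. B3GALT1, a galactosyltransferase gene on chromosome 2, was at 0.682 and 1.35 CPM in parental cells, against 10.7 and 11.2 in the knockout. SLC16A7 was at 0.852 and 2.06 against 8.87 and 11.1, and HAS2 at 5.63 and 8.81 against 36.5 and 43.8. Like AFF2, these genes were higher in parental replicate 2 than in replicate 1. In the knockout AFF2 was higher in replicate 1, and so was RNU1-27P (224 and 164 CPM). B3GALT1, SLC16A7, HAS2 and SELENBP1 (7.59 and 9.88 CPM) were higher in replicate 2. The 5 genes were selected on the same values, so their differences are a description.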

How the data were processed

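Total RNA was sequenced in 2 parental and 2 LARP7 knockout libraries, with TRIzol extraction and Ovation SoLo libraries per the labels. The deposited tables give the authors' estimated counts, TPM and effective length (the latter used for other, length-based values) per transcript, per the file headers. The submitters' processing notes name Salmon 1.6, edgeR 3.24.3, STAR 2.5.3a and cutadapt 1.6, with build hg38. For the annotation release and for strand use, no statement is given in the sources used here.

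Transcripts were joined to GENCODE v29 (197318 of 198002 matched, and the rest held at most 0.071% of reads), summed per gene and rounded. All genes were fitted with edgeR 4.0.16 in R 4.3.3 (filterByExpr, TMM, quasi-likelihood test, Benjamini-Hochberg adjusted p under 0.05), and transcript usage with diffSpliceDGE. DESeq2 1.42.0 and limma 3.58.1 (voom) were alternatives. Both fits were tested on simulated data. The standard error is the log2 difference divided by the root of F. Nothing says that libraries of a group were separate cultures, so p-values may measure technical spread only. The members and lists were chosen with earlier results of these data known. Named were all members, the transcripts holding at least 5% of their gene's TPM (up to 4 per gene), the partners (1 of them is not reported here), the 3 served genes of smallest p, neighbours, overlapping genes and the 5 genes most like AFF2. NEFL, NEFM and the other cell markers came from lists outside this rule.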

Additional observations from a re-analysis of the deposited data

How the results depend on the processing

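Of 120 values of the 10 members under 12 alternatives, 106 kept their direction and side of the threshold, 5 passed only under the alternative (2 for AFF3 and 1 each for ELL2, EAF1 and MLLT3, given above) and 9 changed sign. AFF2 was higher in all 12, and these 12 values are among the 106. The choice of the set had fixed AFF2, so nothing is read from them. With the offset for transcript length the log2 difference was -0.33 for AFF1, -0.042 for ELL and 0.19 for ELL3. When 1 library was left out, values ranged from -0.149 to 0.34 for ELL, -0.704 to 0.50 for ELL3, -0.449 to 0.077 for EAF1 and -0.19 to 0.261 for MLLT1, with the sign changed for ELL, ELL3 and MLLT1 without parental replicate 2, for ELL and MLLT1 without knockout replicate 1 and for EAF1 without parental replicate 1. Over all genes, 154 were called, against 404 with DESeq2, 831 with no filter on low counts and 90 with the length offset. Leaving out 1 library gave 200 to 2265 calls. With the replicate number as a block 1656 genes were called, and transcript usage was called in 0 genes. Same-numbered libraries share only a number, and the correlation of their differences between groups was 0.283 over 10670 genes. Usage was called in 65 genes, in 28 with at least 10% of the gene, in 138 with the gene-level F test, and in 0 to 86 when 1 library was left out. The causes were not tested. Depth limits ELL3 and parental AFF2, which rest on 32 to 64 reads per library.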
